A study of Mus musculus with 4 samples.

Results

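Expression of the enzymes that make UDP-GlcNAc, the sugar donor of O-GlcNAc, and of the enzymes that place and remove O-GlcNAc on proteins was described in pancreatic β cells of Robo mutant and control mice. The set holds 7 genes of the 51912 in the deposited gene table, found by their symbols: Mgea5, Ogt, Gfpt1, Gfpt2, Gnpnat1, Pgm3 and Uap1. It was chosen by the measured genotype difference: Mgea5 was among the leading transcripts that were lower in both mutant libraries, and the other 6 are the enzymes around it. The differences between genotypes in these genes are therefore a description, and no test of them is offered as evidence.

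The sorted cells came from neonates at day 13, with 2 Robo mutant and 2 control libraries. Robo mutant animals were Robo1delta/delta and Robo2flx/flx, and controls were Robo1+/+ and Robo2+/+. Both genotypes carried Rosa26-lsl-H2B-mCherry/+, a nuclear reporter that Cre switches on, and Ucn3-Cre/+, in which the promoter of a gene of maturing β cells drives Cre. Robo1 is given as a deleted allele, so its loss is not limited to cells with Cre, whereas loss of Robo2 depends on Cre. The labels do not say whether libraries came from separate animals, so the spread between libraries may be technical.

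The hexosamine pathway takes a side branch of glycolysis. Its first and rate-limiting enzyme joins the amino group of glutamine to fructose phosphate, and later enzymes add an acetyl group, move the phosphate and attach the nucleotide to give UDP-GlcNAc. Ogt transfers GlcNAc from this donor to serine and threonine of nuclear and cytosolic proteins, and the enzyme encoded by Mgea5, also called Oga or O-GlcNAcase, takes it off again. Because the donor draws on glucose, glutamine and acetyl-CoA, O-GlcNAc is studied as a nutrient signal in β cells.

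The totals were 49593712 and 47788000 estimated counts in the Robo mutant libraries and 48217557 and 38886129 in the control libraries. Levels are CPM, each library's counts scaled to a common total with TMM factors. With edgeR's quasi-likelihood test, 0 of 16517 tested genes had a Benjamini-Hochberg adjusted p under 0.05, the smallest being 0.68, while 1025 had an unadjusted p under 0.05 and DESeq2 called 151. Log2 CPM correlated between 0.923 and 0.973 over the pairs of libraries (Pearson, across genes, which are not replicates). The lowest value was that of the 2 mutant libraries and the highest that of the 2 controls. Pairs across genotypes lay between 0.939 and 0.953, so the mutant libraries were less like each other than like the controls. Robo1 stood at 22.3 and 21.0 CPM in mutant and 48.5 and 104 CPM in control libraries, and Robo2 at 32.7 and 25.6 CPM in mutant and 75.2 and 118 CPM in control libraries. By edgeR the adjusted p was 0.68 for each, and by DESeq2 it was 0.00186 for Robo1 and 1.99e-05 for Robo2. As edgeR did not call the targeted genes either, a missing call is not read as a lack of difference. All 10 β-cell markers were detected, with summed levels of 227395 and 160199 CPM in mutant and 231264 and 197535 CPM in control libraries. Libraries differed in transcripts of other cells: the 14 acinar markers summed to 46038 CPM in Robo mutant 2 and to between 582 and 5125 CPM in the other libraries, and the 6 stromal markers to between 11.3 and 2218 CPM, with overlap between genotypes. The sums of 2 marker lists did not overlap: the 4 delta-cell markers summed to 2505 and 1288 CPM in mutant and 1062 and 980.2 CPM in control libraries, and the endothelial markers, near 0 in most libraries, were lower in both mutant libraries. Of the 10 β-cell markers, 4 were lower in both mutant libraries (20.4% of all tested genes) and 0 higher (16.1%). The part of these in the results on the set was not tested. In sorted bulk cells, fewer cells that express a gene and less RNA per cell cannot be told apart.

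All 7 genes passed the filter on low counts. By edgeR 0 of 7 were called, as were 0% of all tested genes, and DESeq2 called 1, Mgea5, against 0.914% of all genes. At an unadjusted p under 0.05 in edgeR there were 2, Mgea5 and Gfpt2, against 6.21% of all genes. The log2 change was below 0 in 5 of the 7, against 51.3% of all genes, with a median of -0.20 beside -0.0134 over all tested genes. In 5 genes the genotypes did not overlap (36.6% of all genes), with the mutant libraries lower in 4 (20.4%) and higher in 1 (16.1%). Nothing is read from these counts, since the same contrast chose the set and Gfpt2 passed the filter only through the controls. With upper-quartile factors or library totals alone the libraries of Uap1 overlapped, which leaves 4 genes without overlap.

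**Figure D1:**
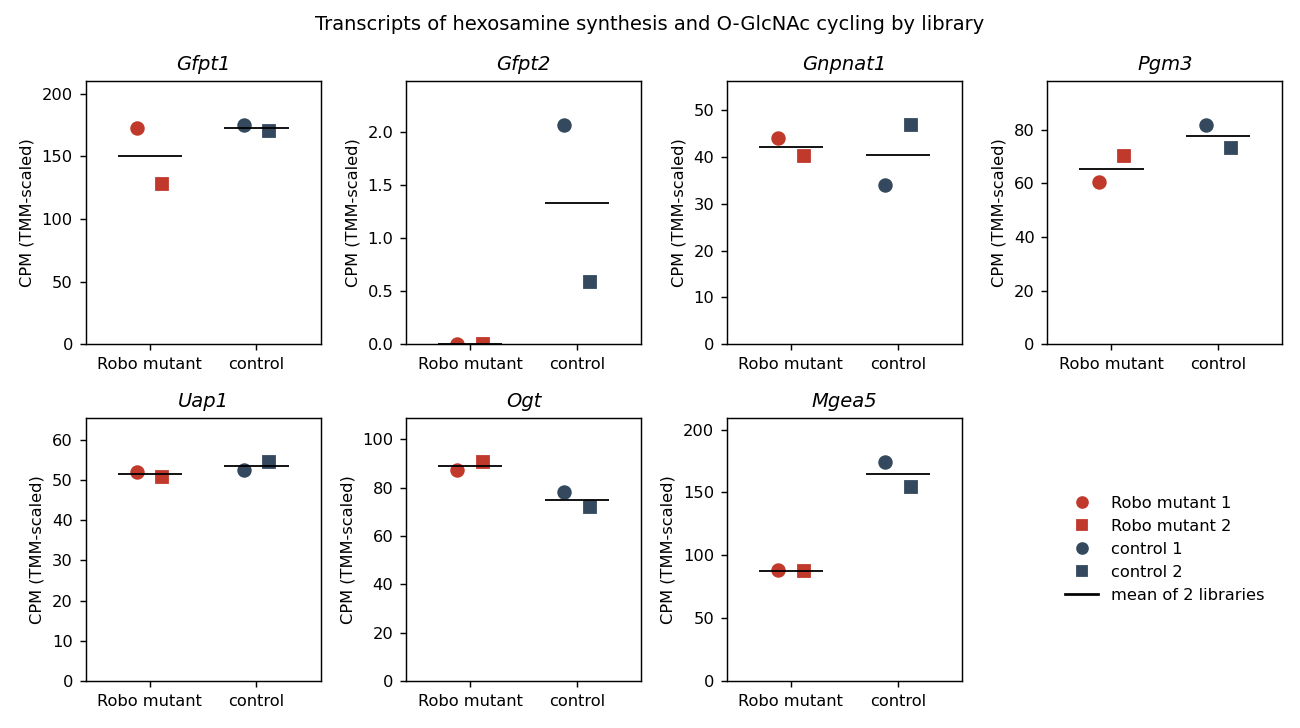
Levels of the 7 genes in each library, in TMM-scaled CPM on linear axes that start at 0; points are libraries and lines are means of 2 libraries. Mgea5 stood at 87.9 and 87.2 CPM in mutant and 174 and 154 CPM in control libraries, Ogt was slightly higher in both mutant libraries, and Gfpt2 was at 0 in both.

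Mgea5, the gene of the enzyme that removes O-GlcNAc (ENSMUSG00000025220, chromosome 19, 45750259 to 45783837, minus strand of GRCm38), was present at 87.9 and 87.2 CPM in the Robo mutant libraries, against 174 and 154 CPM in the control libraries. The groups did not overlap, and the 2 mutant libraries were nearly equal. The mean was 87.5 ± 0.469 CPM in mutant and 164 ± 14.3 CPM in control cells (SD, n = 2 each), 1.88-fold lower in mutant cells. The log2 change was -0.91 ± 0.13 (SE). Leaving out each library in turn gave log2 changes between -0.99 and -0.82, the weaker end without control 1. It was -0.90 without Robo mutant 2, where acinar transcripts were highest.

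Ogt, the gene of the only enzyme known to place O-GlcNAc on nuclear and cytosolic proteins (ENSMUSG00000034160, chromosome X, 101640060 to 101684351, plus strand, GRCm38), was slightly higher in mutant cells. It was at 87.4 and 90.8 CPM in mutant libraries, against 78.3 and 71.9 CPM in control libraries. Both mutant libraries were above both controls, with a log2 change of 0.25 ± 0.126 (SE). The difference kept its sign under each scaling. It was between 0.19 and 0.31 without each library in turn, where the sign could hardly turn because the groups did not overlap. Ogt is X-linked. Xist had 0 counts in both mutant and 1 count in each control library, and 4 Y-linked genes were detected in every library. Their levels were not all even: Ddx3y was at 69.6 and 87.3 CPM in mutant and 87.8 and 88.8 CPM in control libraries, and Kdm5d at 5.30 and 32.9 CPM in mutant and 6.56 and 15.0 CPM in control libraries. Uty was at 24.7 and 21.3 CPM in mutant and 47.0 and 47.8 CPM in control libraries (log2 change -1.04, adjusted p = 0.68 by edgeR and 0.00402 by DESeq2).

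The balance of the eraser and writer transcripts can be read within a library, where the scaling of totals cancels. Per kilobase of the longest annotated transcript, there were 1.07 and 1.02 Mgea5 transcripts for each Ogt transcript in the mutant libraries, against 2.37 and 2.29 in the control libraries. The mean ratio was 1.05 ± 0.0335 in mutant and 2.33 ± 0.0618 in control cells (SD, n = 2 each), which makes the mutant ratio 0.449 of the control ratio. It stayed between 0.439 and 0.459 without each library in turn. The level of the ratio depends on the lengths used: per kilobase of all annotated exons it averaged 0.92 in mutant and 2.05 in control cells.

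Each gene was also set against Uap1, the pathway gene with the most even levels in these same libraries. Since Mgea5 was chosen by its difference, these ratios restate the levels and test nothing. The Mgea5 to Uap1 ratio per kilobase was 0.772 and 0.783 in mutant libraries, against 1.52 and 1.29 in control libraries. The Ogt to Uap1 ratio was 0.721 and 0.765 in mutant libraries, against 0.639 and 0.564 in control libraries. Neither ratio overlapped between genotypes, and Mgea5 differed by the larger factor (0.554 of the control ratio for Mgea5 and 1.24 times it for Ogt).

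**Figure D2:**
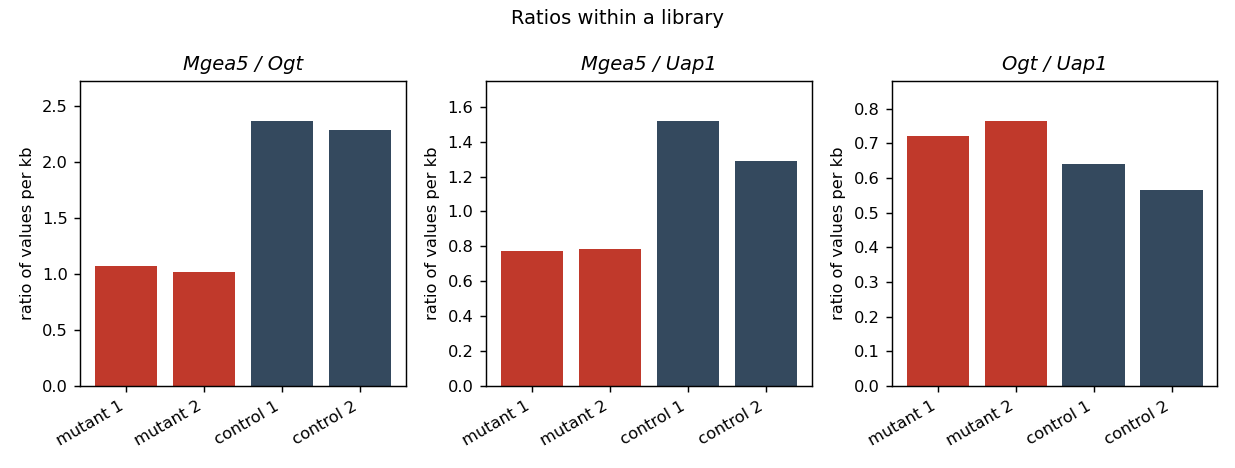
Ratios of values per kilobase of longest transcript within each library, on linear axes that start at 0; red bars are Robo mutant and dark bars control libraries. The Mgea5 to Ogt ratio was 1.07 and 1.02 in mutant and 2.37 and 2.29 in control libraries.

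Both cycling genes are known in mammalian cells to make transcripts that retain an intron, in amounts that depend on O-GlcNAc levels. GENCODE lists 6 transcripts of Mgea5, of which 2 retain an intron, and 7 of Ogt, of which 3 do. The table gives 1 value per gene, so coding and intron-retaining forms were not separated. An antisense gene, Gm15491, shares 551 exon bases with Mgea5, and the libraries carry no strand information. It was listed at 0 counts in both mutant libraries and at 0 and 5 counts in control 1 and control 2, beside 4394 and 3967 Mgea5 counts in mutant and 8357 and 6291 in control libraries.

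The stretches before the start sites of the eraser and the writer are shown because the balance of these transcripts is the comparison given above. RefSeq promoter windows (GRCm38.p6) were found for 6 of the 7 genes, Mgea5 under its newer symbol Oga, and none was found for Gnpnat1. Bases are in lower case, 5′ to 3′ on the gene's strand, and capitals mark matches to any of 7 motifs searched on both strands in the 250 bases before the start. For Mgea5 only the 141 bases that no annotated exon covers are printed (chr19:45783554-45783694, minus strand), and for Ogt the 250 bases before the first of its 2 listed starts (chrX:101639801-101640050, plus strand).
Mgea5: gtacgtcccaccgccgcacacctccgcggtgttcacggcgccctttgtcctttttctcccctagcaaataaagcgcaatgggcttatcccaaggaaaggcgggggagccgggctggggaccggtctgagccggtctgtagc
Ogt: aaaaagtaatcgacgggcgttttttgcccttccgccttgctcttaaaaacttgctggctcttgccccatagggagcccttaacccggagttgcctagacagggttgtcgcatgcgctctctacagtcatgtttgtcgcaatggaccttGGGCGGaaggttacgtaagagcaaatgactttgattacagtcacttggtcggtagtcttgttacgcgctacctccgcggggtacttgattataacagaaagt
The Mgea5 window held none of the motifs, and the Ogt window held a single GC box, GGGCGG, which 32.9% of 27025 promoter windows hold. The Mgea5 window precedes a RefSeq start but lies inside the GENCODE gene, whose 5′ end is at 45783837. Bases before that end were not searched, so the windows of Mgea5 and Ogt are not a like comparison. The Mgea5 window was 64.4% G and C with 20 CpG dinucleotides, and the Ogt window 49.6% with 15, beside medians of 52.0% and 6 over all windows.

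Across the 6 genes, GC boxes were found in 5 windows and the CCAAT box (CCAAT, 34.5% of all windows) in 4. The E-box CACGTG (6.05% of all windows), the cAMP response element TGACGTCA (1.62%), the TATA box TATAAA (13.0%) and the ER stress response element (0.122%), which contains a CCAAT box, were in 0 of 6. The AP-1 site TGANTCA (6.87%) was in 1, that of Gfpt2. These are letter matches in short windows, not measured binding sites.

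Gfpt1 and Gfpt2 encode the paralogous forms of the first enzyme of UDP-GlcNAc synthesis. Gfpt1 (ENSMUSG00000029992, chromosome 6, 87042846 to 87092197, plus strand of GRCm38) was present at 172.8 and 128 CPM in Robo mutant 1 and Robo mutant 2, against 175 and 170.1 CPM in control 1 and control 2. Robo mutant 1 lay between the controls and Robo mutant 2 below all. The log2 change was -0.20 ± 0.184 (SE), and it was 0.00278 without Robo mutant 2 and -0.43 without Robo mutant 1. Robo mutant 2 also had the highest acinar sum, 46038 CPM, and the lowest β-cell marker sum, and the part of these in its Gfpt1 level was not tested.

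Gfpt2 (ENSMUSG00000020363, chromosome 11, 49794178 to 49838613, plus strand, GRCm38) was near the floor of detection. It had 0 counts in both mutant libraries, which allows up to 3 counts each, and 99 and 24 counts in control 1 and control 2, so it passed the filter only through the controls. The levels were 0 CPM in both mutant and 2.07 and 0.589 CPM in control libraries, so the mutant level was at least 21.1-fold lower, taking 3 counts in each mutant library as the floor. The bound was 9.35 without control 1 and 32.8 without control 2. Of all tested genes, 304 (1.84%) were at 0 in both mutant libraries and 21 (0.127%) at 0 in both controls. Gfpt2 is known to be expressed in mesenchymal cells. The stromal markers, such as the collagen gene Col3a1 at 615 and 8.92 CPM in mutant and 1338 and 425 CPM in control libraries, summed to 906 and 11.3 CPM in mutant and 2218 and 659.7 CPM in control libraries. The 5 endothelial markers summed to 0.880 and 0.176 CPM in mutant and 0.961 and 10.45 CPM in control libraries. The part of stromal or endothelial RNA in the Gfpt2 counts was not tested.

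Gfpt2 made up 0% of the summed Gfpt1 and Gfpt2 level per kilobase in both mutant libraries, against 2.44% and 0.727% in control libraries. Nearly all transcript for this step was therefore Gfpt1 in all 4 libraries. The paralogues share 73.5% identity over 1877 bases of the Gfpt2 transcript. Their windows before the start site are shown for contrast (Gfpt1 chr6:87042596-87042845, Gfpt2 chr11:49793905-49794154, both plus strand, GRCm38.p6), with the same use of capitals.
Gfpt1: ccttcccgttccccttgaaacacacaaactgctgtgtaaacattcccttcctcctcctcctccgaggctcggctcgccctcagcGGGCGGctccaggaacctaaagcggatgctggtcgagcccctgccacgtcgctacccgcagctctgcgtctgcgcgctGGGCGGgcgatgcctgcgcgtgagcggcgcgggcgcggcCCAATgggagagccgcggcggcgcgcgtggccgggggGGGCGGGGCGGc
Gfpt2: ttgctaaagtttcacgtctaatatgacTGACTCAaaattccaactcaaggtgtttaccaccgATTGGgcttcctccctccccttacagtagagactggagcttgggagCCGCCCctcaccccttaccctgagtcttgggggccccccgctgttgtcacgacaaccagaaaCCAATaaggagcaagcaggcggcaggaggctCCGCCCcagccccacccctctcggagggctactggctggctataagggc
The window of the abundant paralogue was 72.0% G and C with 32 CpG dinucleotides and held 4 GC boxes, 2 of them overlapping, and 1 CCAAT box. That of Gfpt2 was 57.6% with 8 CpG dinucleotides and held 2 GC boxes, 2 CCAAT boxes and the AP-1 match.

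Gnpnat1 encodes the enzyme that acetylates glucosamine phosphate (ENSMUSG00000037722, chromosome 14, 45376334 to 45404913, minus strand, GRCm38). It stood at 44.1 and 40.1 CPM in mutant libraries, between the 34.0 and 46.8 CPM of control 1 and control 2. The log2 change was 0.0587 ± 0.212 (SE), and its sign turned with library totals alone (-0.00406), without control 1 (-0.15) and without Robo mutant 1 (-0.00976). The value is uncertain, since Styx on the opposite strand shares 3878 exon bases with it and Gm14698 matches 551 bases of its transcript at 99.8% identity. These had 37 and 3 counts and 67 and 5 counts in mutant libraries, and 15 and 8 counts and 15 and 30 counts in control libraries, against 1629 or more for Gnpnat1 in each library.

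Pgm3 encodes the phosphoacetylglucosamine mutase, which moves the phosphate on the sugar (ENSMUSG00000056131, chromosome 9, 86554377 to 86571842, minus strand, GRCm38). It stood at 60.6 and 70.1 CPM in mutant libraries, against 81.8 and 73.3 CPM in control libraries. Both mutant libraries were below both controls, but the gap between Robo mutant 2 and control 2 was smaller than the spread within either genotype. The log2 change was -0.25 ± 0.148 (SE). Pgm3 shares 1270 exon bases with a gene on the opposite strand, Dopey1, which had 580 and 1938 counts in mutant and 1215 and 1442 in control libraries, so reads of that stretch cannot be assigned by strand.

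Uap1 encodes the pyrophosphorylase that makes UDP-GlcNAc in the last step (ENSMUSG00000026670, chromosome 1, 170141938 to 170174957, minus strand, GRCm38). It was the most even of the set, at 52.0 and 50.9 CPM in mutant libraries and 52.6 and 54.6 CPM in control libraries. The log2 change was -0.0591 ± 0.13 (SE). Summed per kilobase, the 5 synthesis genes stood at 88.8 and 83.3 in mutant and 94.4 and 95.4 CPM per kilobase in control libraries.

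Per kilobase of transcript, where levels of different genes can be compared, Mgea5 was the highest of the set in both control libraries at 34.5 and 30.5 CPM per kilobase. In the mutant libraries it stood at 17.4 and 17.2 CPM per kilobase, close to Ogt at 16.2 and 16.9. In control libraries Ogt was at 14.5 and 13.4 CPM per kilobase. In mutant cells the mean levels ran from Pgm3 at 24.5 ± 2.52 through Gfpt1 at 24.1 ± 5.04, Uap1 at 22.3 ± 0.343, Mgea5 at 17.3 ± 0.0928 and Ogt at 16.6 ± 0.441 to Gnpnat1 at 15.1 ± 1.01 CPM per kilobase, with Gfpt2 at 0 (SD, n = 2). The libraries of Gfpt1 overlapped those of Pgm3 and Uap1, while from Uap1 down the libraries of neighbours in this order did not overlap. The order depends on the lengths used, here those of the longest transcripts. Per kilobase of all annotated exons, Mgea5 was below Ogt in both mutant libraries, with ratios of 0.941 and 0.899. In control cells the order was Mgea5 at 32.5 ± 2.83, Pgm3 at 29.1 ± 2.24, Gfpt1 at 27.7 ± 0.571, Uap1 at 23.2 ± 0.626, Gnpnat1 at 14.5 ± 3.25, Ogt at 13.9 ± 0.843 and Gfpt2 at 0.451 ± 0.355 CPM per kilobase (SD, n = 2). There the libraries of Mgea5 and Pgm3, of Pgm3 and Gfpt1, and of Gnpnat1 and Ogt overlapped. By the mean of the 4 libraries, all but Gfpt2 lay between the 76.7 and 86.9 percentiles of tested genes, and Gfpt2 at 9.05.

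**Figure D3:**
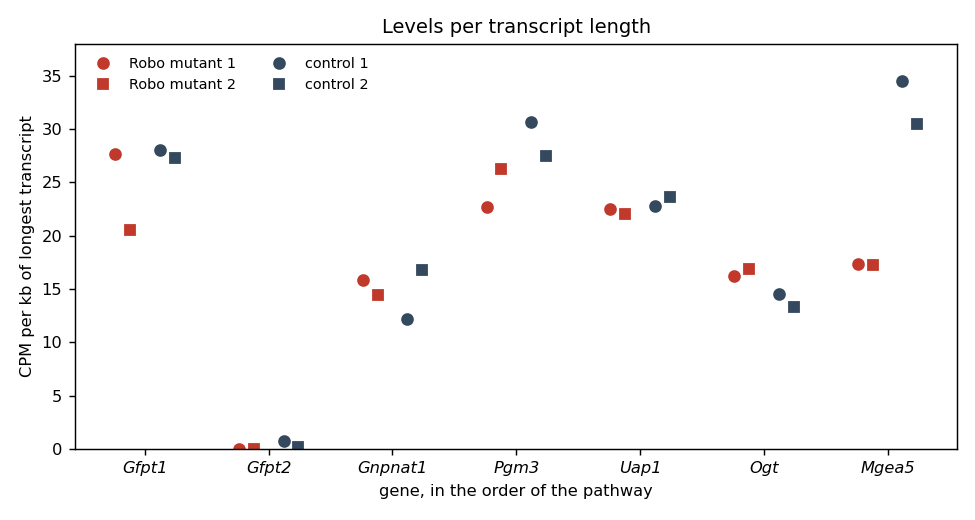
Levels in CPM per kilobase of the longest annotated transcript, by gene and library, on a linear axis from 0. Mgea5 was the highest gene in both control libraries and lay beside Ogt in both mutant libraries, and Gfpt2 lay near 0 in all.

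Profiles over the 4 libraries were compared with that of Mgea5 by the root-mean-square distance of centred log2(CPM + 0.5), among 8743 named genes with a mean of at least 10 CPM. The nearest were Tjp3 at 0.0179, Zfp59 at 0.0535 and Gdpgp1 at 0.0779, where the median gene was at 0.483. Tjp3, which encodes a tight junction scaffold protein, was at 8.10 and 8.02 CPM in mutant and 16.2 and 14.8 CPM in control libraries. Within the set, Pgm3 was at 0.34, Gfpt1 at 0.38 and Uap1 at 0.43, and Ogt at 0.58 was the farthest. Uap1, the most even gene of the set, was also nearer than the median gene. A distance below the median therefore does not show a profile shared with Mgea5. These distances describe 4 libraries and carry no test.

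Genes around the pathway were described in 4 lists, of which 93 of 96 genes were tested. Hk2, Has1 and Gcnt3 did not pass the filter. By edgeR's adjusted p 0 of 93 were called, with 0% over all tested genes, and DESeq2 called 0 (0.914% over all genes). At an unadjusted p under 0.05 there were 7, all of them lower in mutant cells, against 4.21% of all genes lower and 1.99% higher. Renbp, among these, had 0 counts in both mutant libraries and passed the filter only through the controls. The mutant libraries were both lower than the controls in 26 genes (20.4% of all tested genes) and both higher in 13 (16.1%), with a median log2 change of -0.066.

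Among the 16 tested genes that supply the pathway with sugar, glutamine and acetyl groups, 7 were higher and 9 lower, with a median of -0.0552. Hk1, a hexokinase that mature β cells keep low, was at 1.66 and 1.39 CPM in mutant and 5.89 and 4.91 CPM in control libraries (unadjusted p = 0.0244, adjusted p = 0.687). Gpi1, which makes the fructose phosphate that the pathway takes, was at 98.6 and 104 CPM in mutant and 122 and 129 CPM in control libraries (adjusted p = 0.832). Slc38a2, a glutamine transporter gene, stood at 160.7 and 218 CPM in mutant and 143 and 91.1 CPM in control libraries (log2 change 0.69, adjusted p = 0.859). Acly, which makes cytosolic acetyl-CoA, had a log2 change of -0.25.

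Of the 12 genes that salvage or break down amino sugars, 9 were lower and 3 higher, with a median of -0.17. In 7 both mutant libraries were below the controls (20.4% of all tested genes) and in 0 above (16.1%). The 7 include Renbp and Npl, both near the floor. The counts below and above were 4 and 4 for the supply genes. They were 5 and 6 for users of UDP-GlcNAc and 10 and 3 for O-GlcNAc partners and substrates. Nothing is read from these counts, since the lists were chosen with earlier results known. Renbp, a sialic acid pathway epimerase gene, had 0 counts in both mutant and 24 and 22 counts in control libraries, at least 8.26-fold lower with the same floor. Since the control libraries alone carried it past the filter, its difference is given with no test. Nagpa, Galk2 and Gnpda2 followed with log2 changes of -0.77, -0.26 and -0.19. Nagk, the kinase that returns free GlcNAc to the pathway, was at 68.0 and 68.5 CPM in mutant and 69.4 and 78.8 CPM in control libraries.

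Of 35 tested genes that use UDP-GlcNAc or its derivatives, 18 were higher and 17 lower, with a median of 0.0249. Ext1, which polymerises heparan sulfate, was at 14.7 CPM in both mutant libraries and at 31.7 and 23.3 CPM in control libraries (log2 change -0.91, unadjusted p = 0.0171, adjusted p = 0.68). Mgat4a, whose enzyme branches N-glycans and is known in mouse β cells for glycosylating the glucose transporter Slc2a2, was at 11.2 and 11.4 CPM in mutant and 5.74 and 8.07 CPM in control libraries (adjusted p = 0.898). In sialic acid synthesis, Gne had a log2 change of -0.0731, Nans of -0.27 and Nanp of 1.37, the last at 2.72 and 1.297 CPM in mutant and 0.668 and 0.883 CPM in control libraries.

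Of 30 genes of O-GlcNAc partners and substrates, 17 were lower and 13 higher, with a median of -0.0894. Hcfc1, a host cell factor that Ogt cleaves and binds, was at 84.7 and 77.5 CPM in mutant and 64.4 and 65.0 CPM in control libraries (log2 change 0.33, adjusted p = 0.827). The transcription factor gene Creb1, whose protein carries O-GlcNAc, was at 26.0 and 23.8 CPM in mutant and 42.8 and 41.9 CPM in control libraries (log2 change -0.77, unadjusted p = 0.00657, adjusted p = 0.68). Genes of nuclear pore proteins, which are heavily O-GlcNAc modified, followed: Nup98 at -0.50, Nup214 at -0.45 and Nup62 at -0.57, with adjusted p between 0.709 and 0.797. Nup153, named after its values were seen because it is the remaining pore gene of the list, was at -0.23 with overlapping libraries. Pdx1, a β-cell factor and known substrate, was at 189 and 148 CPM in mutant and 203 and 235 CPM in control libraries (adjusted p = 0.897).

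**Figure D4:**
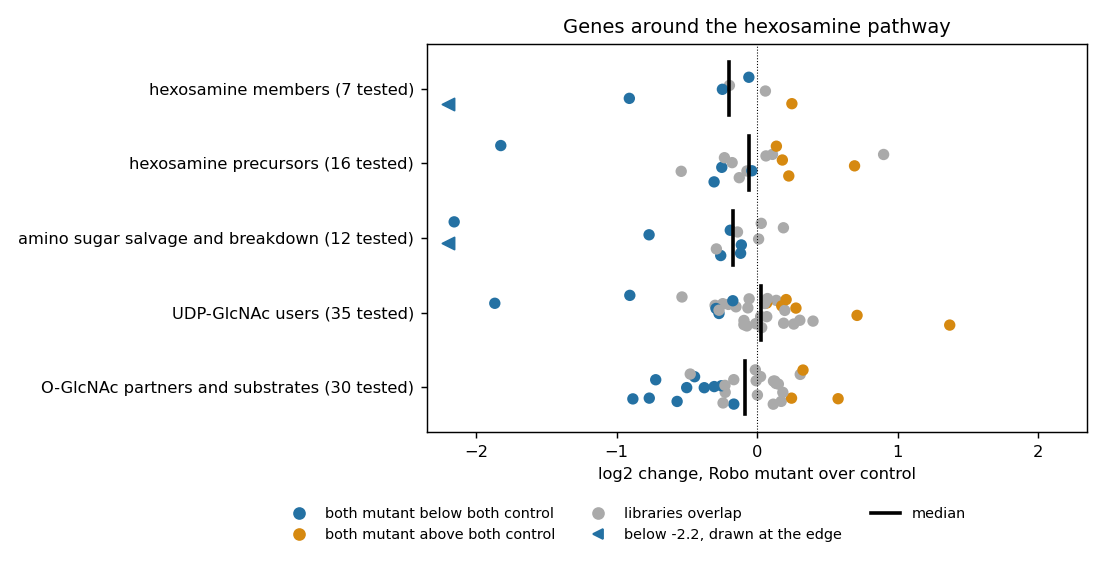
Log2 change of Robo mutant over control for each tested gene of the set (top) and of the 4 lists around it, with black lines at list medians; colours give whether the libraries of the genotypes overlapped, and triangles are Gfpt2 and Renbp, below -2.2. List medians lay between -0.20 and 0.0249.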

How the data were processed

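RNA of β cells sorted for mCherry was made into cDNA with a low-input SMART-Seq kit and tagmented with Nextera XT, per the labels' protocols, a chemistry that does not mark strand. Per the submitters' processing notes the build was GRCm38 and the tools included RSEM 1.3.0, STAR 2.5.3a, edgeR 3.16.5 and bcl2fastq 2.20.0.422, with no role stated for each. Values in the deposited gene table are estimated counts, in whole numbers. Its name calls the values normalized, but the totals differ between libraries, so they were treated as estimated counts, and an earlier rescaling is possible; totals may then not be the depth. There were 0 columns of other samples.

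The 16517 genes that reached 10 counts in 2 or more libraries were tested two-sided, Robo mutant against control, with TMM factors and edgeR's glmQLFTest (edgeR 4.0.16, R 4.3.3), adjusted by Benjamini-Hochberg at 0.05. Standard errors are the log2 change divided by the root of the F statistic. Alternatives were RLE or upper-quartile factors, totals alone, no filter, at least 50 counts, DESeq2 1.42.0, limma 3.58.1 with voom, and each library left out. The fit was run on simulated counts with 200 of 16517 genes changed and the same spread set for all genes. That checks the code, not what the fit can find in these data. Positions and lengths came from GENCODE M21 on the same build, matching 51633 of 51912 identifiers. Transcripts were compared with BLAST 2.17.0. Named around the set are the 4 genes of smallest p per list and 8 fixed genes, not all of which are reported here. The members and lists were chosen with earlier results of these data known. Replicate numbers follow accession order. SD values give the spread between libraries, and SE values include the fit's estimate of that spread. The floor of 3 counts covers counting error in the mutant libraries only.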

Additional observations from a re-analysis of the deposited data

How the results depend on the processing

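The number of genes past the adjusted threshold was 0 with edgeR under each scaling and filter tried and with limma voom, and 151 with DESeq2. Leaving out each library in turn gave between 0 and 1. The 1 call, without Robo mutant 2, was Gm8797, named after its values were seen, with 270 and 4690 counts in mutant and 4556 and 3783 in control libraries. At an unadjusted p under 0.05 the count of 1025 ranged between 181 and 3038 without each library, with 187 without control 1, 181 without control 2, 3038 without Robo mutant 1 and 2769 without Robo mutant 2; the cause was not tested.

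The number of pathway genes lower in mutant cells, 5 of 7, ranged between 4 and 6, leaving out Gfpt2 in settings where it was not tested. That of genes without overlap was between 4 and 5 with all libraries kept. With a library left out it was between 5 and 7, but a genotype then has a single library and overlap is less likely. The share over all tested genes was not computed for those settings, so nothing is read from the higher counts. With at least 50 counts Gfpt2 was not tested, nor without either control. Over the 11 alternatives the log2 change lay between -0.99 and -0.82 for Mgea5 and between 0.19 and 0.31 for Ogt. For Pgm3 it lay between -0.35 and -0.14. The genotypes did not overlap in these genes, so leaving out a library could hardly turn a sign. Mgea5 was also chosen by this difference, so the kept directions are a description only. The Gfpt2 share in control libraries was 0.756% with no length correction, against 1.58%. No paired analysis was possible because the labels give no replicate numbers that the genotypes share.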
